A study of Apis mellifera with 2 samples.

Results

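The miR-71/miR-2 cluster is a group of neighbouring invertebrate microRNA (miRNA) genes. Its members in this data set were the 4 entries of the miRNA count table named ame-miR-2, ame-miR-13a, ame-miR-13b and ame-miR-71. They were taken by name alone from 692 entries, of which 53 carried honey bee miRNA names and 639 were predictions. Predicted entries that happen to carry the numbers of a member, such as 2 or 71, are other entries and were not counted as members.

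miRNAs are short RNAs that guide repression of messenger RNAs, mainly through their seed, a short stretch near the 5′ end. miR-2 and miR-13 belong to the miR-2 family, which in Drosophila represses the pro-apoptotic genes reaper, grim and sickle, and in the cockroach Blattella germanica clears transcripts of Kr-h1, a repressor of metamorphosis, before the moult to the adult. miR-71 has a different seed. In Caenorhabditis elegans it promotes a long adult life, and in the migratory locust it acts on chitin synthase during moulting.

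The study sequenced small RNA from larvae of Apis mellifera ligustica, of a breed selected for royal jelly yield, kept in 3 colonies. Queen larvae had been moved to queen cups less than 18 h after hatching, 150 per colony, and were reared in their own colony. Worker larvae came from the same colonies, and both castes were collected on days 4, 5 and 6, between 73 and 138 h after hatching. The 3 days were pooled within a caste, and the fraction of 18 to 30 nt gave 1 queen and 1 worker library. The libraries stand for pooled larvae, so there was no replicate, no p-value could be had, and variation between colonies, days or larvae was not measured. Listed counts came to 2658259 for the queens and 2318675 for the workers. One count is worth 0.376 CPM (counts per 1000000 listed counts) in the former and 0.431 CPM in the latter. Intervals in parentheses are exact 95% intervals that cover counting error only. In pooled larvae, fewer cells of a type and less RNA per cell cannot be told apart.

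In the RefSeq annotation of assembly Amel_HAv3.1 the members corresponded to 6 neighbouring miRNA genes. In order along the sequence these were Mir2-2, Mir2-1, Mir13b, Mir13a, Mir2-3 and Mir71. All of them lay inside the span of the protein-coding gene LOC726544. miR-2 thus had 3 genes, whose reads were given as 1 count, and each other member had 1. A further gene of the family, Mir2b, came between Mir2-1 and Mir13b in this order. It overlapped Mir2-1 and was not analysed here. Reads of Mir2-1 and Mir2b cannot be told apart without the counting rule, which the sources used here do not give.

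The first question was how much each member contributed to a library. miR-71 had 31223 queen counts and 67126 worker counts, or 1.17% (1.16 to 1.19) and 2.90% (2.87 to 2.92) of listed counts. It was the leading member in both libraries, and its rank among the 53 named miRNAs was 10 in queen and 7 in worker. miR-2 had 3835 and 6596 counts, equal to 1443 CPM (1397 to 1489) and 2845 CPM (2777 to 2914). It held rank 19 in both libraries. miR-13b had 2455 and 7181 counts, equal to 924 CPM (887 to 961) and 3097 CPM (3026 to 3169). Its rank was 24 in queen and 18 in worker, so that it lay below miR-2 in the queen library and above it in the worker library. miR-13a had 67 and 65 counts, equal to 25.2 CPM (19.5 to 32.0) and 28.0 CPM (21.6 to 35.7), with intervals that overlapped. It was the scarcest member, at rank 42 and 44.

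**Figure D1:**
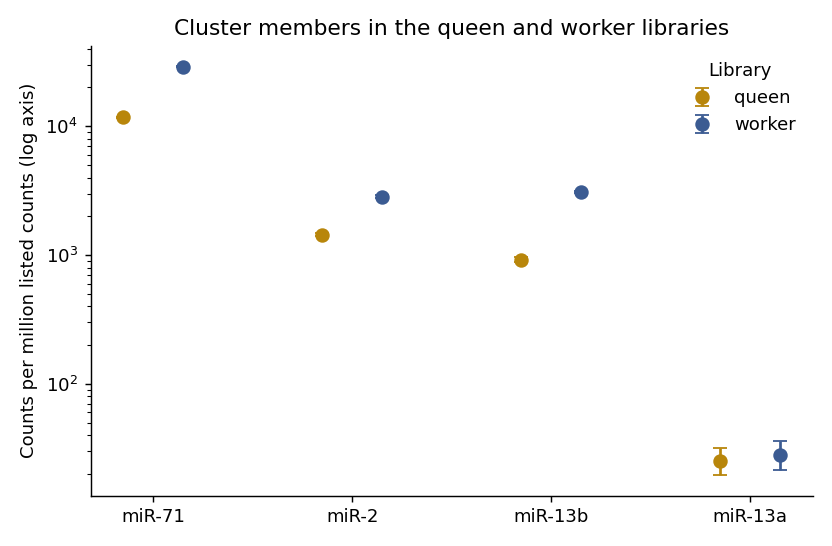
Level of each cluster member in the queen and the worker library, in CPM on a log axis; points are the 1 library of each caste and bars are exact 95% counting intervals. miR-71 leads in both libraries, miR-2 and miR-13b exchange places, and the intervals of miR-13a (19.5 to 32.0 and 21.6 to 35.7) overlap.

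All 4 members together took a share of 1.41% (1.40 to 1.43) in the queen library against 3.49% (3.47 to 3.52) in the worker library. With listed totals, miR-71 accounted for 82.8% of the difference in summed CPM between the libraries, miR-13b for 10.5% and miR-2 for 6.75%, while the levels of miR-13a did not differ beyond counting error. Levels of different miRNAs in a library also carry the preferences of adapter ligation and PCR, so their order does not measure molar amounts. Comparing the same member or the same pair between libraries is less exposed to such preferences, since both libraries were made by the same protocol.

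The second question was the balance of members inside each library, which does not depend on how the libraries are scaled. miR-71 took 83.1% of cluster counts in queen (82.7 to 83.5) and 82.9% in worker (82.6 to 83.2). The counts of miR-71 per count of the summed miR-2 family were 4.91 (4.78 to 5.05) and 4.85 (4.76 to 4.94). The ratio of these values, queen over worker, was 1.01 (0.980 to 1.05), so a caste difference in this balance was not detectable at this depth.

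Inside the miR-2 family the balance did differ beyond counting error. miR-2 made up 60.3% of family counts in queen (59.1 to 61.5) and 47.7% in worker (46.8 to 48.5). miR-13b made up 38.6% in queen (37.4 to 39.8) and 51.9% in worker (51.0 to 52.7). The family member with the most counts was thus miR-2 in the queen library and miR-13b in the worker library. miR-13a made up 1.05% (0.818 to 1.34) and 0.470% (0.363 to 0.598), and it was the rarest of the family in both. Spread evenly over its 3 genes, miR-2 came to 1278 counts per gene in queen and 2199 in worker. These values lay below the 2455 and 7181 of the single miR-13b gene. The division takes the miR-2 count to hold reads of these 3 genes alone, which cannot be checked without the counting rule. Preferences of ligation and PCR also bear on a comparison of different miRNAs.

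**Figure D2:**
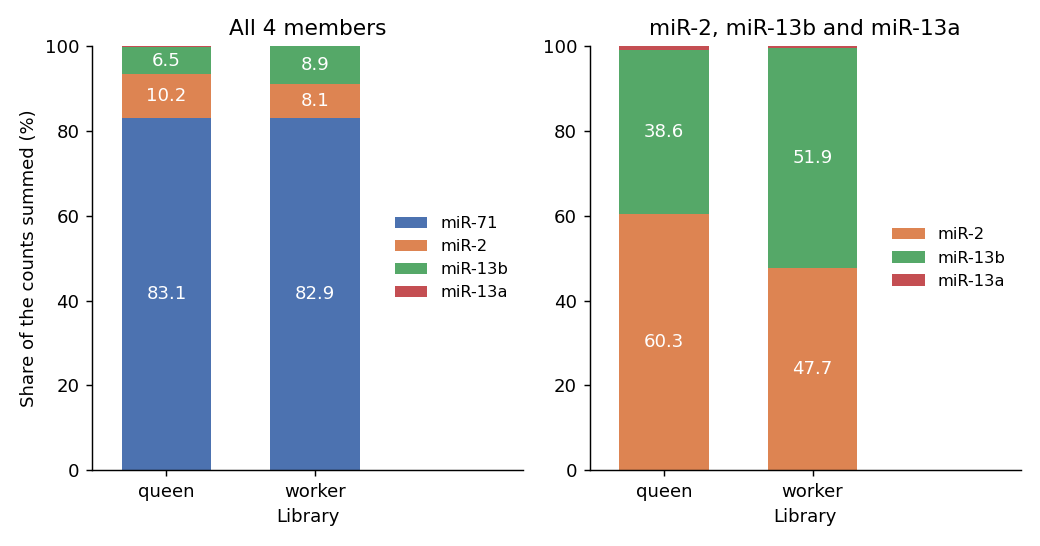
Share of each member in the summed counts of all 4 members (left) and of the 3 members of the miR-2 family (right), in percent, for the queen and the worker library. miR-71 fills 83.1% and 82.9% of the bars on the left, while on the right miR-13b takes 38.6% in queen and 51.9% in worker.

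The 6 pairs of members were then compared between castes as a ratio of within-library ratios. miR-13b per count of miR-2 was 0.640 in queen (0.608 to 0.674) and 1.09 in worker (1.05 to 1.13), a difference of 1.70-fold (1.60 to 1.81). miR-71 per count of miR-2 was 8.14 in queen (7.87 to 8.42) and 10.2 in worker (9.92 to 10.4), or 1.25-fold (1.20 to 1.30). miR-13b per count of miR-71 was 0.0786 and 0.107, or 1.36-fold more in worker (1.30 to 1.43). These 3 well-counted members therefore shifted against each other by less than 2-fold in every pair, with miR-13b gaining most in the worker library and miR-2 least.

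miR-13a went the other way relative to its relatives. There were 36.6 counts of miR-13b per count of miR-13a in queen (28.7 to 47.4) and 110 in worker (86.6 to 143). The balance of miR-13a against miR-13b was 3.02-fold higher in queen (2.10 to 4.32), against miR-71 2.22-fold (1.55 to 3.17) and against miR-2 1.77-fold (1.24 to 2.54). All 3 values rest on 132 counts of miR-13a over both libraries. How reads that match several near-identical relatives were assigned is not given, and reads with sequencing errors or other ends could have been moved between miR-13a, miR-13b and miR-2. Their part in these balances was not tested.

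The third question was whether the members differed between castes relative to the rest of the library. With libraries scaled to their listed totals, the worker library exceeded the queen library 3.35-fold (3.20 to 3.51) in miR-13b and 2.46-fold (2.43 to 2.50) in miR-71. For miR-2 the excess was 1.97-fold (1.89 to 2.05), next to the 2-fold threshold but short of it. For miR-13a the value was 1.11-fold (0.778 to 1.59), with an interval that included 1. The summed family stood at 2.50-fold (2.42 to 2.57) and all 4 members at 2.47-fold (2.44 to 2.50).

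A call required a difference of at least 2-fold, an interval that excluded 1 and at least 20 counts over both libraries, which all 4 members had. By this rule 2 of 4 members, miR-13b and miR-71, had a call in the worker direction, and 0 in the queen direction. Among all named miRNAs 12 of 49 were called in the worker direction (24.5%) and 1 in the queen direction (2.04%). Among all entries, named or predicted, with counts in both libraries and at least 20 over both, 33 of 121 (27.3%) were called in the worker direction. The direction of the calls was thus the common one among the named miRNAs of this pair of libraries. The members' count was not tested against that background.

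The choice of scaling bears on these values, because a few abundant miRNAs fill most of each library. Against the listed totals, edgeR TMM factors raised every log2 ratio of queen over worker by 0.43, DESeq2 median-of-ratios factors by 0.46 and leaving the 5 leading miRNAs out of the totals by 0.52. With these scalings miR-13b stayed past the threshold, with a worker excess of 2.50-fold, 2.44-fold and 2.34-fold. miR-71 came to 1.83-fold, 1.79-fold and 1.72-fold, and was no longer called. miR-2 came to 1.47-fold, 1.43-fold and 1.37-fold, still on the worker side. The log2 ratio of miR-13a turned from −0.15 to 0.27, 0.31 and 0.37, each with an interval that included 0. With each of the 3, 1 of 4 members was called, beside 9 of 49 named miRNAs (18.4%).

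**Figure D3:**
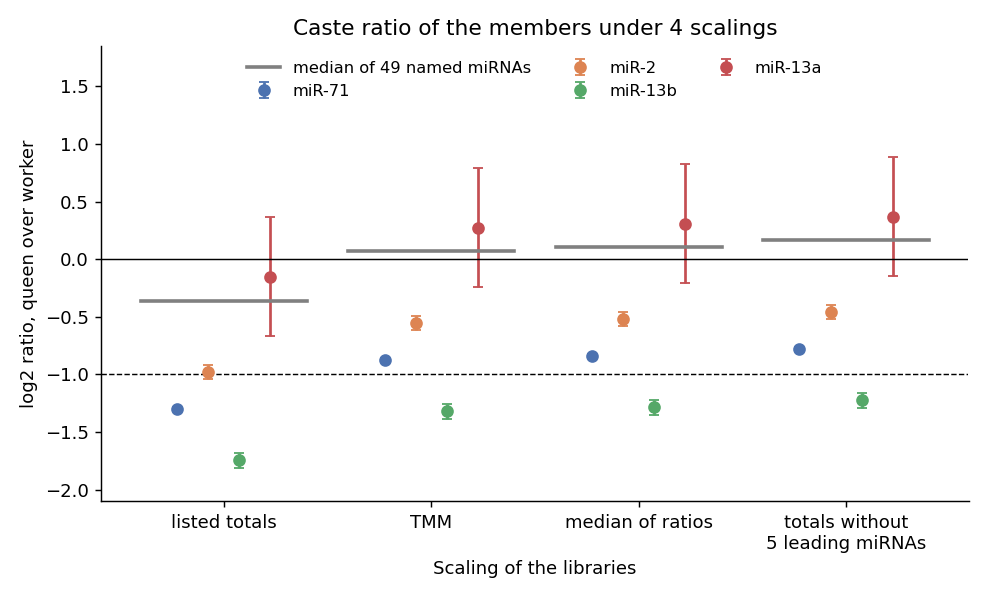
log2 ratio of queen over worker for each member under 4 scalings of the libraries, with exact 95% counting intervals as bars; grey lines mark the median of 49 named miRNAs under the same scaling, and the dashed line marks 2-fold. A scaling moves all points by the same amount, and miR-13b alone lies below the dashed line in each of the 4.

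Positions relative to other miRNAs are free of the scaling. The median log2 ratio of the 49 named miRNAs was −0.36 with listed totals. From this median miR-13b lay −1.39 away, miR-71 −0.94 and miR-2 −0.62, whereas miR-13a lay 0.21 above it. Counted from the strongest worker excess, miR-13b was number 6 of 49, miR-71 number 10, miR-2 number 13 and miR-13a number 32. Thus 3 members lay on the worker side of the typical named miRNA and 1 on the queen side, the latter within its counting interval.

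**Figure D4:**
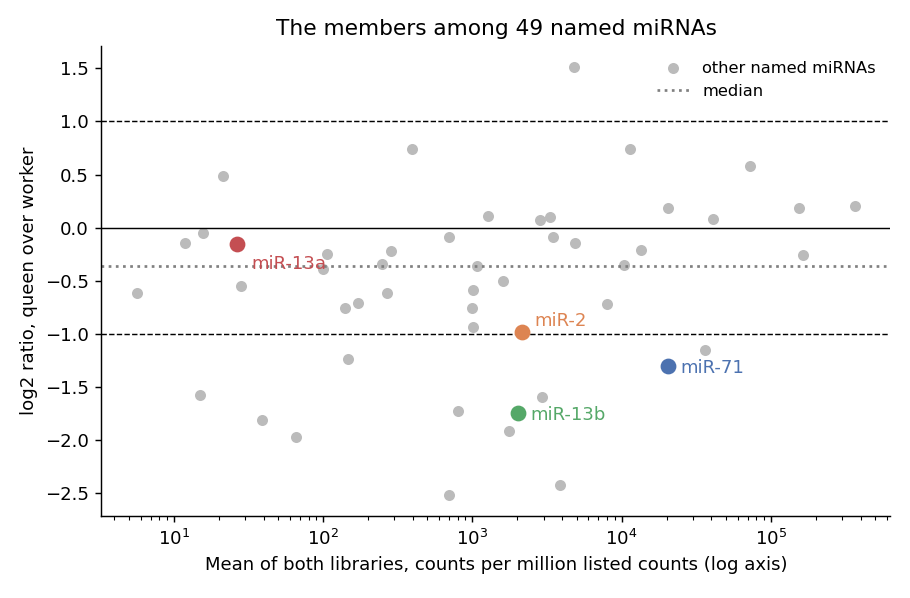
log2 ratio of queen over worker (listed totals) against the mean level of both libraries in CPM, on a log axis, for 49 named miRNAs with at least 20 counts; members are coloured and dashed lines mark 2-fold. miR-2, miR-13b and miR-71 lie below the dotted median of −0.36, and miR-13a lies above it.

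The members were next set beside the miRNAs with the most similar caste ratio, among named miRNAs with at least 100 counts, by the absolute difference of log2 ratios over the 2 libraries. Nearest to miR-13b (−1.75) were miR-7 at −1.73 and the muscle miRNA miR-133 at −1.81. Nearest to miR-71 (−1.30) were miR-277, which in Drosophila acts on breakdown of branched-chain amino acids, at −1.23, and miR-31a at −1.16. miR-31a was also the second nearest to miR-2 (−0.98), after miR-14 at −0.93. Nearest to miR-13a (−0.15) were miR-100 at −0.15 and miR-8 at −0.21. The interval of miR-13a (−0.67 to 0.36) also held the ratios of many other named miRNAs, so its nearest are not set apart from those. The ratio of miR-133 rests on 46 and 141 counts and has a wide interval too (−2.33 to −1.32). With 1 library per caste, such likeness describes a single ratio.

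Neighbouring miRNA genes are often transcribed together, so the spread of caste ratios inside the cluster was set beside that of other neighbours. Named miRNAs within 10 kb of each other in the RefSeq annotation formed 6 groups. The miR-71/miR-2 cluster spanned 1.59 on the log2 scale (1.07 to 2.11), from miR-13b at −1.75 to miR-13a at −0.15, although the genes of this pair adjoin in the annotated order. miR-277 and miR-34 spanned 0.98 (0.64 to 1.32), and miR-125, let-7 and miR-100 spanned 0.96 (0.81 to 1.12). miR-317 (−0.09), often counted with miR-277 and miR-34, was not placed in their group by the 10 kb rule. With it that group would have a wider span. The pairs of miR-12 with miR-283, miR-275 with miR-305 and miR-279 with miR-996 spanned 0.46 (0.39 to 0.54), 0.37 (0.36 to 0.38) and 0.01 (−0.04 to 0.06). Without miR-13a the span of the cluster was that between miR-13b and miR-2, 0.77 (0.68 to 0.85), which is below those of the miR-277 and let-7 groups. Each interval is the counting interval of the balance between the lowest and the highest miRNA of a group. These were picked from the same values, and the intervals do not allow for that choice. A group with more members also has more chance of a wide span.

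**Figure D5:**
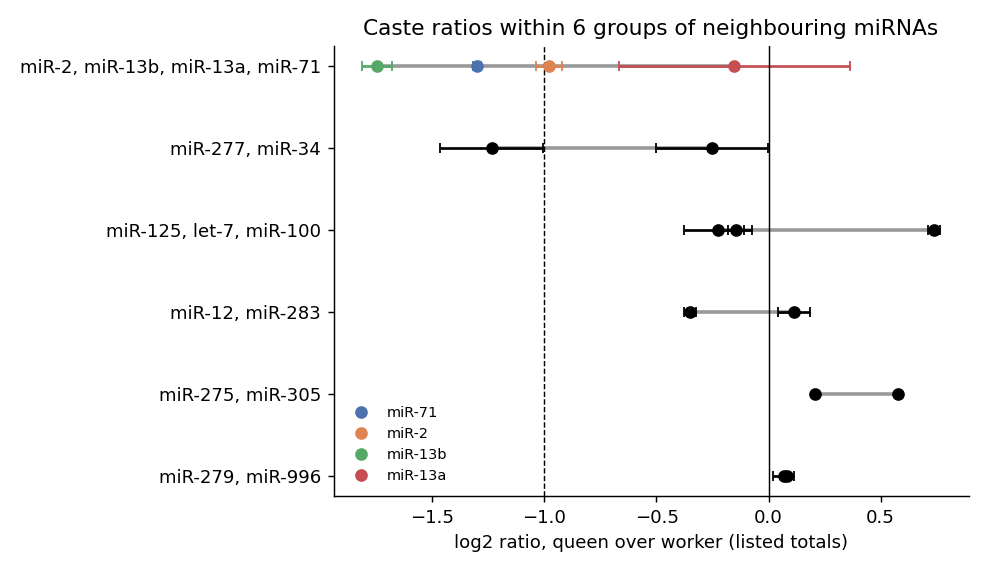
log2 ratio of queen over worker (listed totals) for the miRNAs of 6 groups of neighbouring genes, with exact 95% counting intervals as bars; grey lines join the lowest and highest miRNA of a group, and the dashed line marks 2-fold. The miR-71/miR-2 cluster spans 1.59, of which miR-13a, the member with the widest interval, forms the upper end.

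A pair of lists gives the setting of the known roles of the miR-2 family. Of 4 miRNAs that restrain cell death in Drosophila, 2 were called in the worker direction with each of the 4 scalings, beside 24.5% of all named miRNAs with listed totals and 18.4% with the others. These were miR-263 at a log2 ratio of −2.42 (−2.48 to −2.37) and miR-263b at −1.97 (−2.37 to −1.59), whose Drosophila counterparts repress hid in sensory bristle organs. miR-14 had −0.93 (−1.02 to −0.85). bantam, a growth regulator that represses hid, had −0.50 (−0.57 to −0.44) and moved above 0 without the 5 leading miRNAs in the totals. The list's median was −1.45, against −1.14 for the 4 cluster members and −0.36 for all 49 named miRNAs. The list was chosen with earlier results of these data known, and both of its calls came from the miR-263 family. Its median is therefore a description only, and a link between the list and the cluster was not tested.

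Of 8 miRNAs linked to hormone signalling and metamorphosis in insects, 0 were at 2-fold with listed totals. Of all 49 named miRNAs, 24.5% were called in the worker direction and 2.04% in the queen direction with these totals. With TMM factors, median of ratios and totals without the 5 leading miRNAs, 4, 4 and 5 of 49 were called in the queen direction. let-7, a regulator of developmental timing, had 0.74 (0.71 to 0.76), the opposite side from miR-2, miR-13b and miR-71, and was past 2-fold on the queen side once the libraries were scaled in any of the 3 other ways. miR-100 and miR-125, which share its locus, had −0.15 and −0.22, miR-34 had −0.25 and miR-8 −0.21, all of which turned positive with those scalings. miR-252 had −0.76. The other two members, miR-14 and bantam, also belong to the cell death list and are given there. The list's median of −0.24 lay near that of all named miRNAs (−0.36) and also turned positive, to 0.19, 0.22 and 0.28. The median of all named miRNAs moved by the same shifts, to 0.07, 0.10 and 0.16.

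Of 4 tissue markers, all had counts in both libraries, and 3 had a call in the worker direction, beside 24.5% of all named miRNAs. The markers were chosen with earlier results of these data known. miR-124, a miRNA of neurons, stood at 207 CPM in queen and 1183 CPM in worker. Its log2 ratio of −2.52 was the strongest worker excess of the 49 named miRNAs. It was the only miRNA listed for neurons, so its value does not speak for neuronal miRNAs in general. The muscle miRNAs miR-1 and miR-133 summed to 150113 and 180024 CPM. Most of this sum was miR-1, which was not called (−0.26) and turned positive with the 3 other scalings, while miR-133 had −1.81 (−2.33 to −1.32). The midgut miRNA miR-281 stood at 7.52 and 22.4 CPM on 20 and 52 counts. The part of tissue make-up in the values of the cluster was not tested.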

How the data were processed

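The authors deposited raw counts for each miRNA, whole numbers with 1 column per caste and no normalization. Aligner, miRNA caller, genome build and the rule for reads that match more than 1 miRNA: not given in the sources used here. Per the labels' protocols, total RNA was extracted with Trizol, size selected on a gel, ligated to both adapters, amplified and sequenced on the Solexa platform.

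Libraries were scaled to their listed totals. Ratios carry exact conditional (Clopper-Pearson) 95% intervals, shares carry Clopper-Pearson intervals, and ratios of ratios carry exact conditional odds-ratio intervals. Reads were amplified by PCR and carried no molecular identifiers, so they are not independent molecules and intervals may be too narrow. Columns with values for other samples numbered 0. Alternatives were TMM factors (edgeR 4.0.16), median of ratios (DESeq2 1.42.0), totals without the 5 leading miRNAs or of named miRNAs alone, ratio thresholds of 1.5 and 4, a 99% interval, no minimum count or 100 counts, and miR-13a left out or merged with miR-13b. Neither package was used for a test. Factors were computed in R 4.3.3, and intervals with scipy 1.17.1 under Python 3.11.15. The calling step was tested on simulated counts with planted changes and counting error alone. That test does not bear on PCR duplication or on variation between larvae or libraries.

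All 53 named miRNAs matched RefSeq names in Amel_HAv3.1, which served for names and neighbours; no coordinates are given, since the build behind the counts is not known. Genes named were the 4 members, the 2 miRNAs nearest to each in log2 ratio and the fixed lists (cell death, hormones and metamorphosis, tissue markers). Members, lists and naming rule were chosen with earlier results of these data known.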

Additional observations from a re-analysis of the deposited data

How the results depend on the processing

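The balances between members do not depend on scaling, and all 6 kept an interval off 1 at the 99% level. The log2 ratio of miR-71 (−1.30) became −0.88 (TMM), −0.84 (median of ratios) and −0.78 (totals that leave out the 5 leading miRNAs), all short of 2-fold. Under the same 3 scalings the 4 members summed (−1.30) became −0.88, −0.84 and −0.78, the summed miR-2 family (−1.32) became −0.89, −0.86 and −0.80, and miR-13a (−0.15) turned to 0.27, 0.31 and 0.37. These scalings add a constant to every log2 ratio. miR-2 (−0.98) was called at a threshold of 1.5, and narrowly, at −1.0005, with totals of named miRNAs. At a threshold of 4, none of miR-13b (−1.75), miR-71 (−1.30), the 4 members summed (−1.30) and the family (−1.32) was called. The share of the 4 members became 1.46% of queen and 3.67% of worker counts with totals of named miRNAs, and 8.44% and 14.5% without the 5 leading miRNAs. Named miRNAs called higher in queen (1) numbered 4, 4 and 5 under the 3 scalings above, 3 at a threshold of 1.5 and 0 at 4, and those higher in worker (12) became 20 at 1.5 and 2 at 4. The other 45 recomputed values kept their call or stayed within counting error or 1.5 times. No paired analysis was possible because there is a single library per caste, and none could be left out. Depth limits miR-13a, with 132 counts.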

Other observations

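The change of balance between miR-13a and miR-13b was set beside that of 4 other pairs of related miRNAs, which were chosen after their values were seen. miR-92a per count of miR-92b was 0.299 in queen (0.272 to 0.328) and 0.101 in worker (0.0926 to 0.109), which is 2.97-fold higher in queen (2.62 to 3.37). This is close to the 3.02-fold (2.10 to 4.32) of miR-13a against miR-13b. miR-263 per count of miR-263b was 45.4 in queen (35.9 to 58.3) and 62.1 in worker (54.7 to 70.8), or 1.37-fold higher in worker (1.03 to 1.79). miR-9a per count of miR-79 was 1.38 and 1.67, or 1.21-fold higher in worker (1.11 to 1.32). miR-279 per count of miR-996 was 0.0696 in queen and 0.0703 in worker, so that queen over worker came to 0.990 (0.957 to 1.03).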
